A study of Homo sapiens with 18 samples.

Results

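The comparison of smooth THP-1 libraries with smooth control libraries asks how human podocytes responded to macrophages on a smooth surface. It rests on 6 of the 18 libraries of the study, 3 with macrophages and 3 without, identified by their labels. The cells, human podocytes of the telomerase-immortalised line PODO/TERT256, were grown on 3D hemispheres whose surface was smooth or fractal. The smooth THP-1 group was cultured with macrophages made from THP-1 cells, which stem from a monocytic leukaemia. In the smooth cytokine group the cells received TNF-α and IL-6, and the smooth control group received neither. Fractal THP-1 and fractal control groups, also of 3 libraries each, gave the same contrast on the other surface. The labels give neither the length of exposure, nor the number of macrophages, nor a step that separated macrophages from podocytes before lysis. Whether separate cultures stood behind the 3 libraries of each group is not said either, and the p-values therefore cover library-to-library scatter, which could be technical alone. PODO/TERT256 is 1 line, so the results describe that line.

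Podocytes wrap the capillaries of the glomerulus with interlocking foot processes and, with the basement membrane beneath them, form the filter of the kidney. Macrophages that enter an inflamed glomerulus release TNF, interleukin 1, interferons and growth factors. TNF and interleukin 1 act largely through the transcription factor NF-kB, interferons through STAT and IRF factors, and TGF-beta through SMAD factors that raise matrix genes. Cells that slow their cycle lower genes of DNA synthesis, which E2F factors drive, and genes of mitosis, which are switched late in the cycle through a separate promoter element.

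The 6 libraries held 13990684 to 17395338 counts, the range over the whole series being 11488204 to 21264180. Values below are counts per 1e6 counts (CPM) after TMM scaling, a correction for differences in composition, and their SD is over 3 libraries. A log2 fold change comes from edgeR's quasi-likelihood test fitted to all 18 libraries. A gene counts as called where the Benjamini-Hochberg adjusted p was under 0.05. The test returns no SE, so the SE given is the absolute log2 fold change divided by the square root of the test's F statistic. Wherever a rise, fall or change is given as a value ± SE, it is such a log2 fold change. Within the smooth THP-1 group the variance between libraries was 3.91 to 6.56 times that of counting error (chi-square per degree of freedom), and within the smooth controls 2.52 to 2.98 times. A pair of libraries of other groups stood apart, fractal THP-1 replicate 3 and smooth cytokines replicate 2, and both entered the shared estimate of the spread. Podocyte identity was only partly seen: NPHS1 (nephrin) had 3 counts in 1 of the 6 libraries, and WT1 had 1, 6 and 3 counts in the smooth THP-1 libraries and none in the smooth controls. SYNPO (synaptopodin) stood at 60.7 ± 5.36 CPM in the smooth THP-1 libraries and 66.5 ± 3.22 CPM in the smooth controls, and TERT at 2665 ± 189 and 2423 ± 88.6 CPM, neither of them called. In a fit to the 6 libraries alone TERT was called higher (edgeR adjusted p = 0.00585), as it was without the pair that stood apart (edgeR adjusted p = 0.0433).

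RNA of macrophages was present in the smooth THP-1 libraries. CHI3L1, which encodes a secreted protein of macrophages, had 39.7, 37.3 and 40.8 CPM in the smooth THP-1 libraries and no count in any smooth control. Before TMM scaling that is at least 666-fold higher, if 3 counts over the control group are taken as the floor. ITGB2, the beta chain of leukocyte integrins, had 21.04, 22.7 and 22.8 CPM against 0.117, 0.115 and 0.362 CPM in the smooth controls, and LAPTM5, a lysosomal protein of blood cells, had 14.4, 13.6 and 13.9 CPM against 0.0587, 0.173 and 0.145 CPM. LCP1 (L-plastin) averaged 9.31 ± 1.83 CPM with no count in the controls, at least 158-fold higher by the same reckoning before TMM scaling. Of 50 markers of monocytes and macrophages 41 had a count in the smooth THP-1 libraries and 21 in the smooth controls. Of the 23 that could be tested 20 were called higher and 2 lower, with a median log2 fold change of 5.34, or 4.32 where the 8 genes with no count in the smooth controls are set to their bound of 3 counts over the group. Those 8 passed edgeR's filter for low counts only through groups other than the smooth controls. Markers low in every group could not be tested, so this share and this median are partly fixed by the filter. SRGN (serglycin) was lower, with 334 ± 9.93 CPM in the smooth THP-1 libraries against 420.1 ± 10.6 CPM in the smooth controls. Without SRGN and LCP1 the markers summed to 122.2, 119.6 and 130.05 CPM in the smooth THP-1 libraries and to 13.2, 13.2 and 14.05 CPM in the smooth controls, 9.21-fold apart. That fold depends on leaving out SRGN: with both genes included the sum was 467.3 ± 13.9 CPM in the smooth THP-1 libraries and 433.6 ± 10.9 CPM in the smooth controls, 1.08-fold apart, and without SRGN alone the fold was 9.90. For each of these sums an exact permutation test, two-sided, gave p = 0.1, the smallest that 3 against 3 libraries allow. In the fractal THP-1 libraries the sum without SRGN and LCP1 was 58.4 ± 9.31 CPM. For every gene below that macrophages also make, a change in podocytes and RNA brought by macrophages cannot be told apart, and neither can fewer podocytes and less RNA per podocyte.

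Across the 16129 genes tested 5655 were called, 35.1%, with 2794 higher (17.3%) and 2861 lower (17.7%) in the smooth THP-1 libraries. The 3 values of each group did not overlap in 8777 genes, 54.4% of those tested. Changes of at least 2-fold were more often upward, with 1014 genes higher and 445 lower, and of at least 4-fold more so, with 439 higher and 115 lower. The median log2 fold change of all genes was 0.02. The shares of genes called in 24 lists are set beside that background in the plot of lists.

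**Figure D1:**
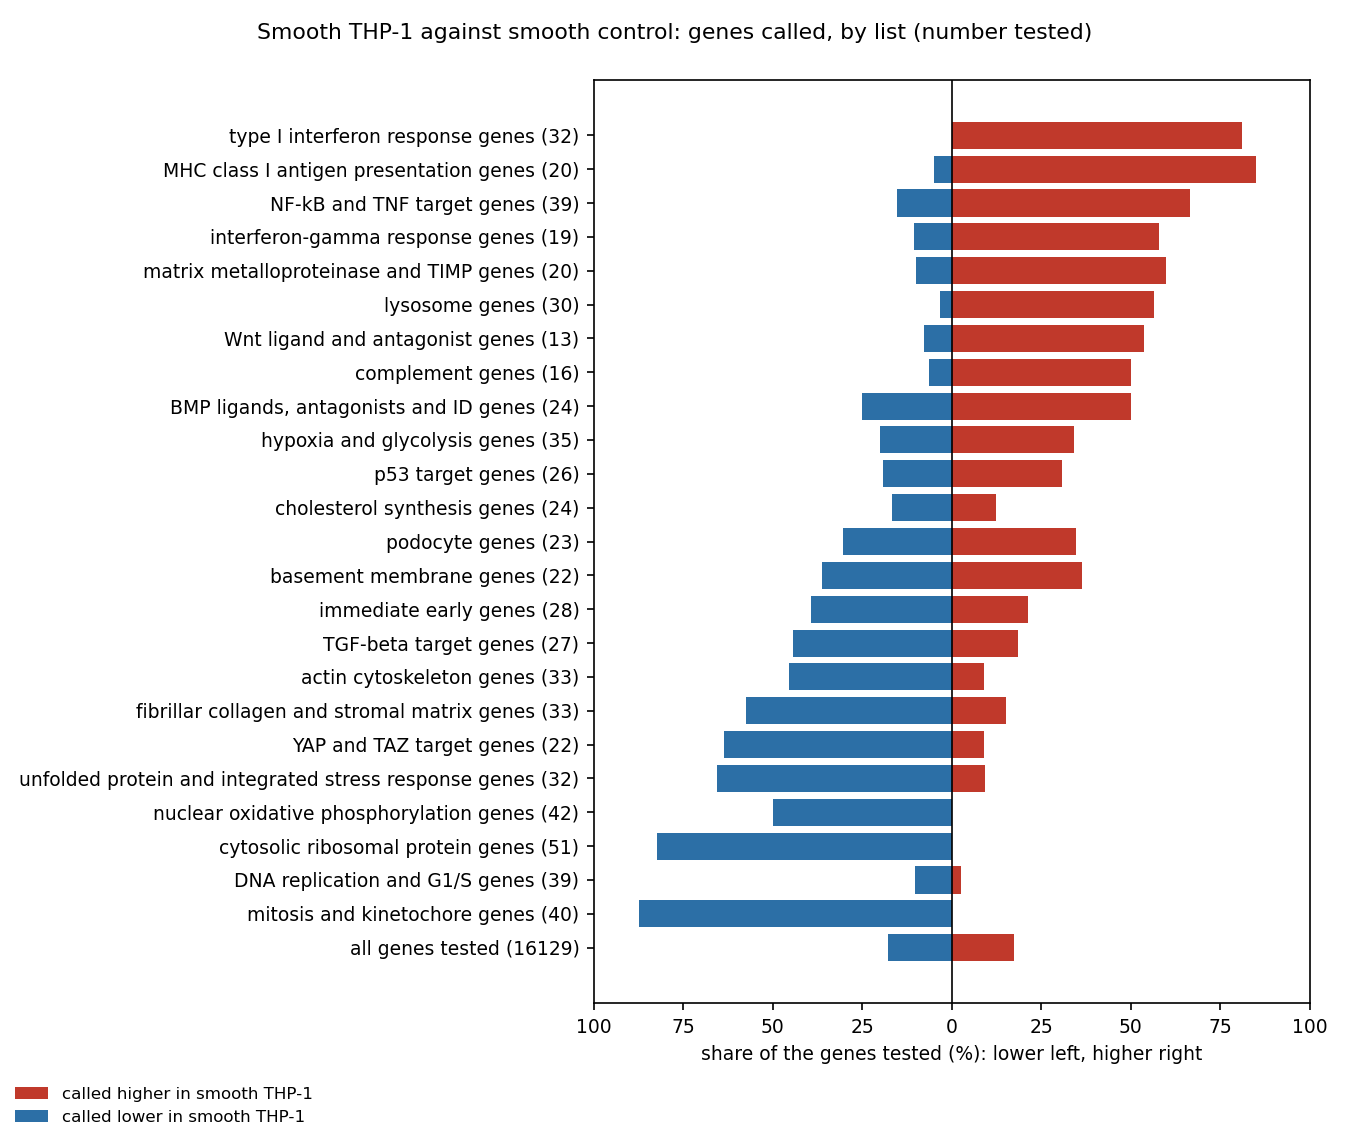
Share of the genes tested in each list that was called higher (red, right) or lower (blue, left) in the smooth THP-1 libraries against the smooth controls, by edgeR at an adjusted p under 0.05, with the number tested in brackets. The bottom bar gives all 16129 genes tested, 17.3% higher and 17.7% lower. The type I interferon and MHC class I lists lie almost wholly to the right, and mitosis and ribosomal protein lists wholly to the left.

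Outside the list of macrophage markers, the genes with the largest rises included an alarm cytokine and a morphogen. The part of macrophage RNA in the rises below was not tested. IL33, an interleukin 1 family cytokine held in the nucleus and released as an alarm signal, had 93.8, 89.3 and 95.2 CPM in the smooth THP-1 libraries, against 1.76, 2.65 and 2.25 CPM in the smooth controls, a log2 fold change of 5.38 ± 0.28 (edgeR adjusted p = 1.4e-10). SHH, which encodes the morphogen sonic hedgehog, had 33.9, 36.2 and 31.6 CPM against 0.705, 0.978 and 1.52 CPM, and rose by 5.01 ± 0.23. In both genes every library with macrophages was above every control, which the rule for naming genes by size of change required. SLITRK4, a synaptic adhesion protein in neurons, rose by 5.24 ± 0.24, GPRIN3 by 5.98 ± 0.47, the glutamate transporter gene SLC1A3 by 4.86 ± 0.40 and TLR2, a receptor for bacterial lipoproteins, by 5.20 ± 0.48. Without smooth control replicate 2 the value of GPRIN3 was 6.59, and without smooth control replicate 1 that of TLR2 was 6.47. A2M, the protease inhibitor alpha-2-macroglobulin, averaged 9.40 ± 1.13 CPM and LPL (lipoprotein lipase) 6.89 ± 0.702 CPM in the smooth THP-1 libraries. Neither had a count in the smooth controls. With the floor of 3 counts and before TMM scaling, that gives rises of at least 160.0-fold and at least 117-fold.

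In CPM the 3 largest rises were in FN1, TGM2 and GREM1, a matrix protein, a crosslinking enzyme and a growth factor antagonist. FN1 (fibronectin) took 13.2 ± 0.905% of all counts in the smooth THP-1 libraries and 10.01 ± 0.151% in the smooth controls, a log2 fold change of 0.32 ± 0.11 (edgeR adjusted p = 0.033). That call was lost without any 1 of the 3 smooth controls or without smooth THP-1 replicate 1 or 3, with edgeR adjusted p between 0.0572 and 0.177. TGM2, the transglutaminase that crosslinks fibronectin and other matrix proteins, had 3159, 3049.5 and 3013 CPM against 676, 668 and 679 CPM and rose by 2.19 ± 0.09. GREM1 (gremlin), a secreted antagonist of bone morphogenetic proteins (ENSG00000166923, chromosome 15, 32717974 to 32745107 in GRCh38 and GENCODE 29), had 2012, 1907 and 1842 CPM against 259, 261 and 263 CPM and rose by 2.88 ± 0.14. Both lay in narrow, well separated ranges, and the rule for naming them required ranges that do not overlap. IGFBP5, AKAP12, ECE1 (an enzyme that activates endothelin) and PAX8, a kidney lineage factor, rose by 2.57 ± 0.11, 1.20 ± 0.09, 0.88 ± 0.08 and 1.38 ± 0.10.

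Among the genes with the largest falls were a clotting protein, a matrix protein and a Wnt antagonist. FGB, which encodes the beta chain of fibrinogen, had 0.349, 0.0569 and 0.120 CPM in the smooth THP-1 libraries against 43.5, 54.1 and 46.9 CPM in the smooth controls. The other chains, FGA and FGG, had no count in the smooth THP-1 libraries and averaged 1.36 ± 0.531 and 1.14 ± 0.554 CPM in the smooth controls. POSTN (periostin), a matrix protein raised by TGF-beta, had 49.5, 38.5 and 40.8 CPM against 990.2, 1003 and 1011 CPM. Its log2 fold change was -4.54 ± 0.13 (edgeR adjusted p = 1.4e-17). DKK1, a secreted Wnt antagonist, had 4.07, 2.73 and 4.57 CPM against 58.4, 58.5 and 63.9 CPM. MEST, LRRC17, CPA4 and the transcription factor gene KLF4 fell with log2 changes of -3.85 ± 0.29, -3.18 ± 0.23, -3.13 ± 0.20 and -2.998 ± 0.25.

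Of 39 tested genes that NF-kB and TNF raise, 26 rose and 6 fell, with a median of 0.59 against 0.02 for all genes. ICAM1, the adhesion molecule that binds leukocyte integrins (ENSG00000090339, chromosome 19, 10270835 to 10286615), had 98.99, 90.9 and 88.6 CPM in the smooth THP-1 libraries, against 15.7, 17.5 and 18.5 CPM in the smooth controls, a rise of 2.43 ± 0.09 (edgeR adjusted p = 9.3e-16). TRAF1, an adaptor of TNF receptors, had 77.9, 80.4 and 79.2 CPM against 10.7, 10.1 and 9.85 CPM and rose by 2.95 ± 0.13. In both genes the lowest library with macrophages was over 4 times the highest control. SOD2, the mitochondrial superoxide dismutase, rose by 1.86 ± 0.11, the inhibitor gene NFKBIA by 1.23 ± 0.09 and BIRC3, an inhibitor of cell death, by 1.21 ± 0.10. VCAM1, the other main adhesion molecule of the list, went the other way: 432, 388 and 410.2 CPM in the smooth THP-1 libraries and 566, 573 and 572 CPM in the smooth controls, a change of -0.48 ± 0.09 (edgeR adjusted p = 0.0003). PTX3, a soluble pattern receptor, also fell, with 49.2, 56.3 and 56.2 CPM against 266, 258 and 265 CPM.

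Chemokines and cytokines moved unevenly. CCL2, which draws monocytes, had 132, 128 and 135 CPM in the smooth THP-1 libraries against 34.1, 36.2 and 35.1 CPM in the smooth controls, a rise of 1.90 ± 0.29, and IL6 had 116, 121 and 121 CPM against 34.6, 32.7 and 33.8 CPM, a rise of 1.82 ± 0.09. CXCL8, a chemokine of neutrophils, had 1349.7, 1378 and 1400.5 CPM against 906, 922 and 897 CPM, a rise of 0.60 ± 0.08. CXCL6 rose by 1.01 ± 0.13, and the lymphocyte chemokine CXCL12 averaged 10.2 ± 1.10 CPM against 0.446 ± 0.147 CPM. CXCL2 and CXCL3, near copies of CXCL1 with which they may share reads, fell: CXCL2 had 3.72, 6.78 and 5.05 CPM against 15.9, 14.2 and 14.8 CPM (-1.53 ± 0.18), and CXCL3 averaged 4.29 ± 0.432 CPM against 9.27 ± 1.97 CPM (-1.12 ± 0.19). CXCL1 itself had 254, 253 and 271 CPM against 228, 231 and 238 CPM and was not called (0.16 ± 0.09, edgeR adjusted p = 0.16, and 0.0269 without the libraries that stood apart). In a fit to the 6 libraries alone CXCL1 was called higher (edgeR adjusted p = 0.0026). In all, 7 of 13 chemokine genes tested rose and 2 fell. Of 16 interleukin and colony-stimulating factor genes 8 rose and 2 fell. CSF1, the growth factor of macrophages, had 233, 234 and 209 CPM against 57.6, 54.98 and 58.8 CPM and rose by 1.98 ± 0.10, and IL1B averaged 157 ± 2.79 CPM against 46.8 ± 2.07 CPM. CCL5 and MMP9, which macrophages make in quantity, averaged 1.04 ± 0.266 and 4.25 ± 0.675 CPM in the smooth THP-1 libraries with no count in the smooth controls. Among 23 receptors of these cytokines 7 rose and 7 fell. TNFRSF11B (osteoprotegerin), a soluble decoy receptor of the TNF family, rose by 3.33 ± 0.16, while the log2 changes of IL1RAP, the shared chain of interleukin 1 receptors, and OSMR, the receptor of oncostatin M, were -1.07 ± 0.15 and -0.80 ± 0.12.

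The promoters of some of these genes hold a match to an NF-kB motif, the letters GGG and TTTCC with any 2 bases between them, searched on both strands in the 250 bases before and 50 after each start in RefSeq (GRCh38.p14). It was found in 1.91% of the 35116 promoters of the table, in 2.1% of the 11386 tested genes with a promoter there, and in 14 of 32 genes of the NF-kB and TNF list with one. Of these 32 genes, a match was found in 8 of the 21 called higher, 2 of the 4 called lower and 4 of the 7 not called. The stretches of 60 bases below are shown because they set genes that rose (IL6, CXCL6) beside genes that fell (CXCL2, CXCL3) with the same letters in capitals. They lie before the start, and each is read 5′ to 3′ on the gene's own strand.
IL6, chr7:22727102-22727161, plus strand: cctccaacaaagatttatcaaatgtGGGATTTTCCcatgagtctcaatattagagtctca
CXCL6, chr4:73836563-73836622, plus strand: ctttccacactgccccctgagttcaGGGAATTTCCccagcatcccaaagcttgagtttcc
CXCL2, chr4:74099239-74099298, minus strand: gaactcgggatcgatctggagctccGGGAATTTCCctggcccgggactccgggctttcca
CXCL3, chr4:74038734-74038793, minus strand: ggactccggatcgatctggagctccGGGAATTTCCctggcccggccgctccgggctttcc
The match begins 73 bases before the start of IL6, 90 before that of CXCL6, 78 before that of CXCL2 and 79 before that of CXCL3. CXCL6, CXCL2 and CXCL3 carry the same 10 letters in capitals.

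**Figure D2:**
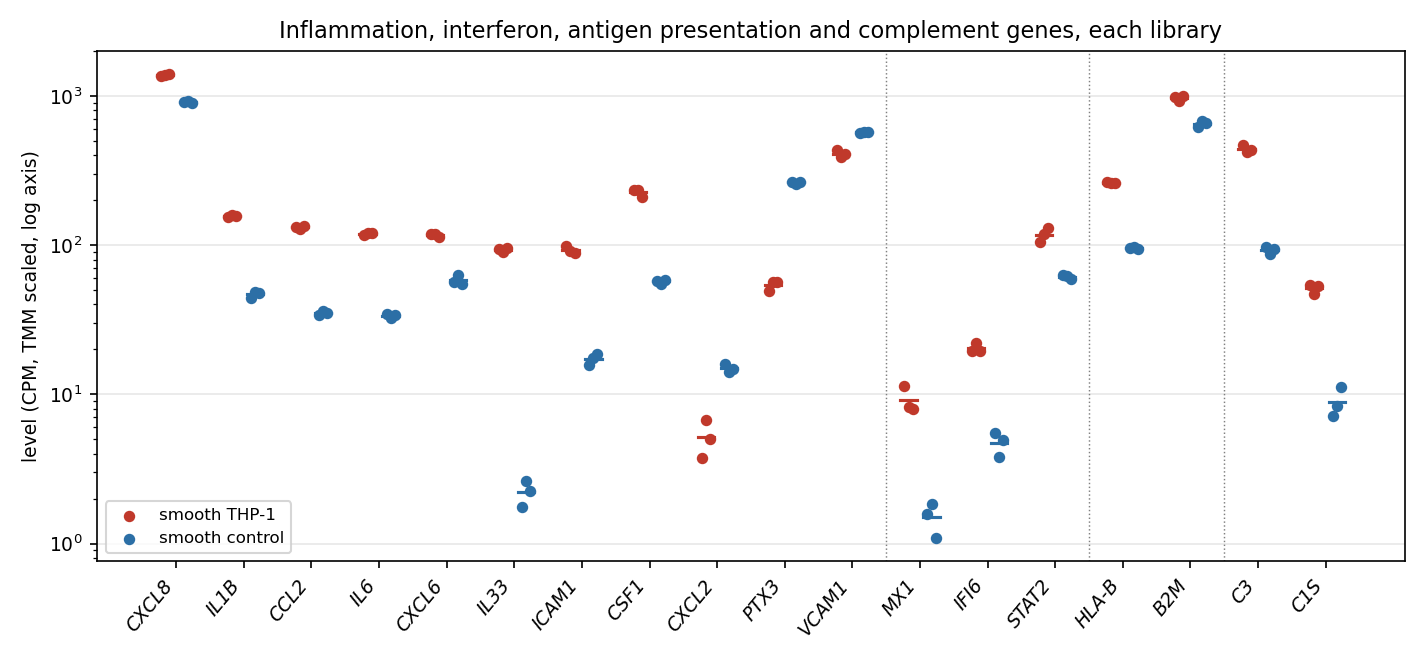
Level of each gene in each library (CPM, log axis), smooth THP-1 in red and smooth control in blue, with the group mean as a bar; dotted lines part inflammatory, interferon, antigen presentation and complement genes. ICAM1, IL33 and CSF1 lie well above their controls in all 3 libraries, while CXCL2, PTX3 and VCAM1 lie below.

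Most genes of the type I interferon response rose. Of 32 genes of the type I interferon response 26 were called higher and 0 lower, with a median log2 fold change of 0.99; at an unadjusted p under 0.05 the count lower was also 0, by edgeR, DESeq2 and limma-voom. STAT2, a transcription factor that interferon receptors activate, had 104, 118 and 131 CPM in the smooth THP-1 libraries, against 62.9, 62.2 and 59.3 CPM in the smooth controls, a rise of 0.94 ± 0.09 (edgeR adjusted p = 2.3e-08). MX1, an antiviral GTPase, had 11.3, 8.26 and 7.94 CPM against 1.59, 1.84 and 1.09 CPM, and IFI6 had 19.5, 22.04 and 19.5 CPM against 5.52, 3.80 and 4.92 CPM. IFIT1 averaged 7.39 ± 1.31 CPM in the smooth THP-1 libraries and 1.78 ± 0.451 CPM in the smooth controls, and OAS1, which makes the second messenger of RNase L, 3.81 ± 1.32 and 0.578 ± 0.394 CPM, so that these effectors rose at low counts. IFIH1, a sensor of viral RNA, rose by 1.57 ± 0.19. The 6 genes of the list not called were IFI27, IFIT5, IFITM2, IFITM3, IRF9 and USP18. In a fit to the 6 libraries alone IRF9 was called higher (edgeR adjusted p = 0.0223).

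MHC class I molecules, which interferons raise, show peptides to cytotoxic T cells. Of 20 genes of that pathway 17 rose and 1 fell, with a median of 0.64. HLA-B had 263, 262 and 260.2 CPM in the smooth THP-1 libraries against 95.3, 97.4 and 93.6 CPM in the smooth controls, a rise of 1.46 ± 0.10, and TAPBP (tapasin), which loads peptides, had 229, 216 and 212 CPM against 90.7, 98.5 and 91.8 CPM, a rise of 1.22 ± 0.08. B2M, the light chain, averaged 963 ± 40.7 CPM against 650.4 ± 30.4 CPM (0.57 ± 0.08), and TAP1, the peptide pump, rose by 0.94 ± 0.11. HLA genes resemble each other and may share reads, so single HLA values are uncertain. Among 19 genes raised by interferon gamma 11 rose and 2 fell. The 2 that fell were CD274 (PD-L1), an inhibitor of T cells, with 45.98, 44.4 and 41.3 CPM against 136, 133 and 138 CPM (-1.63 ± 0.12), and the tRNA synthetase gene WARS1 (-1.15 ± 0.25).

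A match to the interferon element, GAAA and GAAA with any 2 bases between them, on either strand, was found in 3.57% of all promoters of the table and 2.91% of those of tested genes. Of 26 type I interferon response genes with a promoter there 18 held one, and so did 9 of 16 MHC class I genes. Among the type I genes a match was found in 15 of the 22 called higher and 3 of the 4 not called. The following stretches, 2 genes of the interferon response and 2 of antigen presentation, show the element in capitals before the start.
IFIT1, chr10:89392495-89392554, plus strand: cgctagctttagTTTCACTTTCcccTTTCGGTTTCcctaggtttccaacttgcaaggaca
IFI6, chr1:27672251-27672310, minus strand: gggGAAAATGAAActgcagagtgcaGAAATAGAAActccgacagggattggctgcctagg
TAP1, chr6:32853798-32853857, minus strand: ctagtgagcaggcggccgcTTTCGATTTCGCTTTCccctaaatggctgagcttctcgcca
B2M, chr15:44711354-44711413, plus strand: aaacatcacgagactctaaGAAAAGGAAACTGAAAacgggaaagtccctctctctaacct
In IFIT1 and TAP1 the capitals are the reverse complement of the element. Each stretch holds 2 matches, which overlap in TAP1 and B2M and stand apart in IFIT1 and IFI6.

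Complement genes, which opsonise and lyse targets, followed, with 8 of 16 higher and 1 lower. C3, on which all complement pathways converge, had 466, 418 and 432 CPM in the smooth THP-1 libraries and 97.7, 86.8 and 93.9 CPM in the smooth controls, a rise of 2.24 ± 0.13. C1S and C1R, the proteases of the classical pathway, rose by 2.54 ± 0.16 and 1.85 ± 0.12. CD59, which shields cells from lysis by complement, was the gene that fell, with 365, 354 and 332 CPM against 525, 519 and 535 CPM (-0.59 ± 0.07, edgeR adjusted p = 2.4e-07). Response genes of IL-6 and STAT3 were split, with 7 of 18 higher and 5 lower: SOCS1, a feedback inhibitor of cytokine signals, rose by 2.31 ± 0.23 and the acute phase gene SAA1 by 3.55 ± 0.38 (4.31 without smooth control replicate 3), whereas MYC fell with a log2 change of -1.71 ± 0.13 along with the fibrinogen chains. SAA1 and SAA2 are near copies whose reads may be shared.

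Genes of mitosis fell, while most genes of DNA replication were not called. Of 40 mitosis and kinetochore genes 0 rose and 35 fell, with a median log2 fold change of -0.89. Of 39 genes of DNA replication and the G1/S step 1 rose and 4 fell, with a median of -0.03. TOP2A, a topoisomerase that untangles chromosomes, had 205, 164 and 188 CPM in the smooth THP-1 libraries against 370.5, 372 and 373 CPM in the smooth controls, a change of -1.004 ± 0.09 (edgeR adjusted p = 1.9e-09). CENPE, a kinetochore motor, had 36.8, 35.4 and 33.01 CPM against 102, 96.2 and 97.3 CPM and KIF20A, a motor of the central spindle, 35.8, 38.4 and 35.7 CPM against 101, 94.4 and 96.97 CPM. In these genes each library with macrophages was below each control. MKI67, the marker of cycling cells, averaged 218 ± 15.95 CPM against 396 ± 4.92 CPM (-0.86 ± 0.19). By contrast RRM2, a subunit of the enzyme that makes deoxynucleotides, had 45.6, 44.6 and 36.4 CPM against 45.8, 48.3 and 41.4 CPM and was not called (-0.10 ± 0.13, edgeR adjusted p = 0.62), and GINS2, a part of the replicative helicase, was not called either (-0.35 ± 0.18). In a fit to the 6 libraries alone GINS2 was called lower (edgeR adjusted p = 0.0234). That fit called 3 of the 39 replication genes higher and 7 lower. MCM6, another helicase subunit, fell with a log2 change of -0.64 ± 0.10, and UHRF1 was the gene of the list called higher (0.40 ± 0.15), a call lost without any 1 of the controls or without smooth THP-1 replicate 2 or 3 (edgeR adjusted p between 0.0703 and 0.133). CDKN1A, the cell cycle inhibitor p21, had 244, 235 and 253 CPM against 223, 236 and 235 CPM and was not called (0.08 ± 0.07). Of 26 p53 target genes 8 rose (30.8%) and 5 fell (19.2%), against 17.3% and 17.7% of all genes tested.

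The letters TTTGAA, the cell cycle homology region of late cell cycle promoters, were found on either strand in 15.2% of all promoters of the table and 9.97% of those of tested genes. They were present in 22 of 32 mitosis genes and in 1 of 34 replication genes with a promoter there. Among the mitosis genes they were found in 20 of the 28 called lower and 2 of the 4 not called. The stretches below show the element, in capitals, in 3 mitosis genes that fell.
PLK1, chr16:23678829-23678888, plus strand: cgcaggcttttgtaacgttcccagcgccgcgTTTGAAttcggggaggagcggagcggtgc
CCNB2, chr15:59105086-59105145, plus strand: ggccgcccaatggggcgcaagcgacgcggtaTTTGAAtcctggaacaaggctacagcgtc
CDC20, chr1:43358889-43358948, plus strand: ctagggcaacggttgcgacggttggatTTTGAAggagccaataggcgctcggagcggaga
PLK1, a kinase that drives entry into mitosis, averaged 55.6 ± 3.80 CPM in the smooth THP-1 libraries and 103 ± 5.46 CPM in the smooth controls. CCNB2, a mitotic cyclin, averaged 28.1 ± 1.55 and 60.97 ± 2.51 CPM, and CDC20, an activator of the anaphase-promoting complex, 67.1 ± 3.36 and 117 ± 1.77 CPM. The element begins 29, 29 and 65 bases before the start of these genes in that order.

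The response of the cell cycle genes differed between the surfaces. In the test of that difference, which sets the THP-1 effect on smooth against the THP-1 effect on fractal topography, 39 of the 40 mitosis genes and 36 of the 39 replication genes were called higher on smooth, against 7.88% of all genes tested (13.2% were called in either direction). On fractal topography 40 of 40 mitosis genes fell, with a median of -2.68, and 37 of 39 replication genes fell, with a median of -1.46, where 50.5% of all genes tested were called, 25.0% higher and 25.5% lower. RRM2 averaged 42.2 ± 5.07 CPM in the smooth THP-1 and 45.2 ± 3.52 CPM in the smooth control libraries, and 6.91 ± 1.86 CPM in the fractal THP-1 and 50.5 ± 1.06 CPM in the fractal control libraries. Its difference between surfaces was 2.75 ± 0.20 (edgeR adjusted p = 3.8e-09), and that of MKI67 was 2.18 ± 0.27. Without fractal THP-1 replicate 3 and smooth cytokines replicate 2, the libraries that stood apart, 39 mitosis and 38 replication genes were called higher on smooth.

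**Figure D3:**
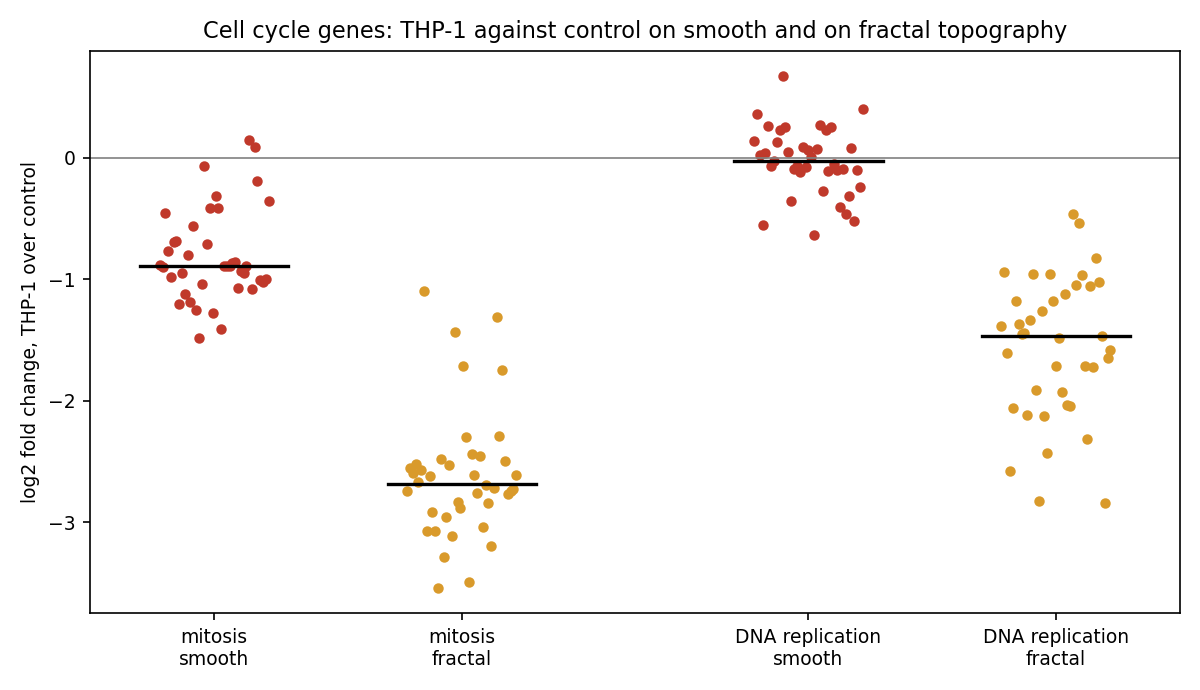
Log2 fold change of THP-1 over control for each tested mitosis gene (left) and DNA replication gene (right), on smooth (red) and fractal (orange) topography, with the median as a black bar. Replication genes lie around 0 on smooth topography (median -0.03) and below 0 on fractal topography (median -1.46).

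Genes of the integrated stress response, which ATF4 drives when amino acids are short or proteins misfold, fell. Of 32 genes of that response and of the unfolded protein response 3 rose and 21 fell, with a median of -0.67. ATF4 itself had 182, 178 and 196 CPM in the smooth THP-1 libraries, against 489.5, 507 and 502 CPM in the smooth controls, a change of -1.43 ± 0.16 (edgeR adjusted p = 1.2e-06). TRIB3, a pseudokinase raised by ATF4, had 24.1, 17.02 and 20.1 CPM against 155, 165 and 159 CPM, and CHAC1, which breaks down glutathione, had 5.12, 4.78 and 4.51 CPM against 57.4, 62.6 and 65.2 CPM. In all 3 genes the groups were far apart, with every library with macrophages below every control. Enzymes and carriers of amino acid supply were among them. PSAT1 and PHGDH, which make serine, fell with log2 changes of -2.93 ± 0.33 and -2.05 ± 0.25, SLC7A11 and SLC3A2, which together import cystine, with log2 changes of -2.42 ± 0.20 and -2.07 ± 0.21, and ASNS, which makes asparagine, with one of -2.89 ± 0.49; ASNS lies within another annotated gene on the same strand, so its level is uncertain. The chaperones of the endoplasmic reticulum fell less, with log2 changes of -0.66 ± 0.11 for HSPA5 and -0.72 ± 0.08 for HSP90B1. The 3 that rose were ATF5 (1.24 ± 0.14), SYVN1 and EDEM1. The genes of the secreted factors INHBE, ADM2 and STC2, which are not in the list, fell with log2 changes of -3.57 ± 0.40, -2.99 ± 0.30 and -2.63 ± 0.16.

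An element of ATF4 target promoters with the letters TGATGNAA was found in 3.62% of all promoters and 1.75% of those of tested genes, and in 4 of 31 genes of this list with a promoter in the table. All 4, ASNS, CHAC1, HERPUD1 and SLC3A2, were among the 20 called lower. The pair below shows the element in its usual orientation in ASNS and as its reverse complement in CHAC1, which is why both are printed.
ASNS, chr7:97872443-97872502, minus strand: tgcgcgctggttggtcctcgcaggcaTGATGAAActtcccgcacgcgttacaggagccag
CHAC1, chr15:40953236-40953295, plus strand: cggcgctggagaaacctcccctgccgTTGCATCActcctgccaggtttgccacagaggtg
It begins 68 bases before the start of ASNS and 209 before that of CHAC1.

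**Figure D4:**
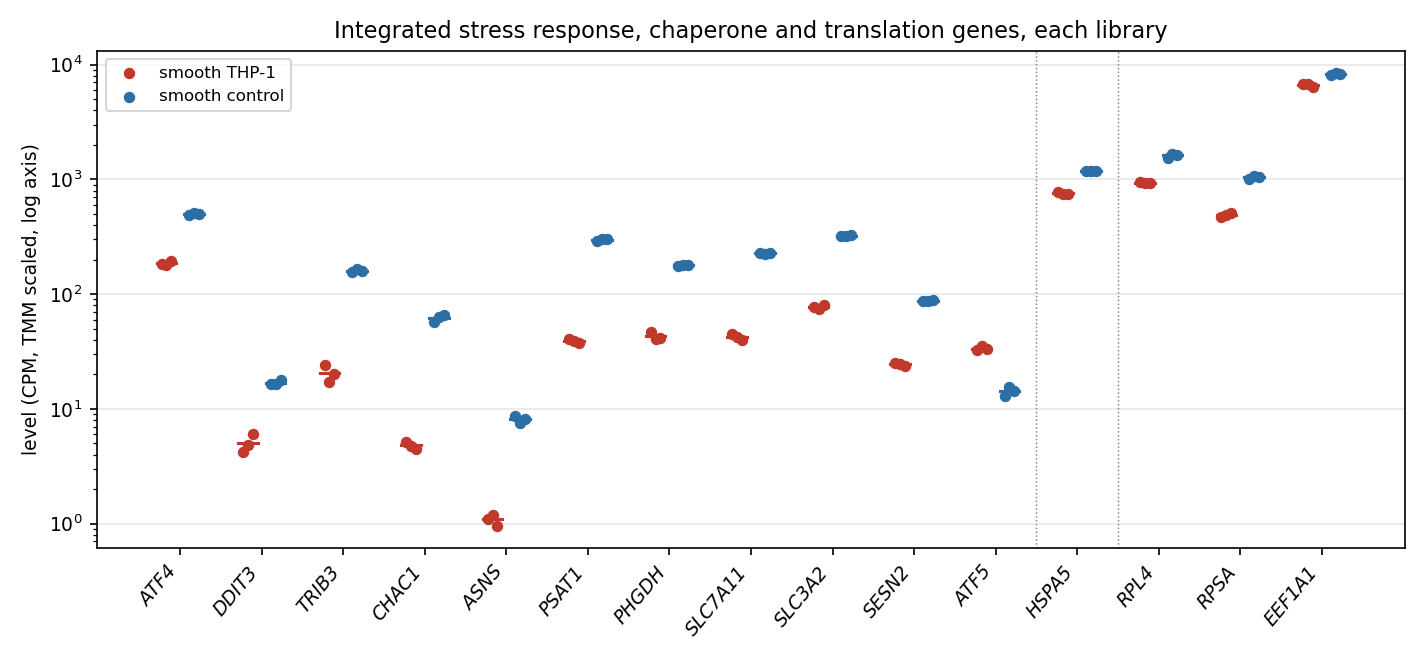
Level of genes of the integrated stress response, of the chaperone HSPA5 and of translation in each library (CPM, log axis), smooth THP-1 in red and smooth control in blue, with group means as bars. ATF5 is the gene that lies above its controls; the others lie below, TRIB3, CHAC1 and PSAT1 furthest.

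Most ribosomal protein genes fell, while the nuclear genes of oxidative phosphorylation were divided between lower and not called in the main fit. Of 51 ribosomal protein genes 0 rose and 42 fell, with a median of -0.65, and RPSA had 472, 494 and 513 CPM against 1009, 1064 and 1048 CPM. Of 42 nuclear genes of oxidative phosphorylation 0 rose and 21 fell, with a median of -0.32, led by ATP5F1B, a subunit of ATP synthase (-0.65 ± 0.07). Of the 13 genes encoded by mitochondrial DNA 0 were called, with a median of -0.27. By edgeR, DESeq2 and limma-voom, 0 had an unadjusted p under 0.05. Each of these fits used the same 18 libraries, those that stood apart included. The share of counts on the 13 genes was 3.70 ± 0.0957% in the smooth THP-1 libraries and 3.79 ± 0.0504% in the smooth controls. Without the libraries that stood apart 7 of these 13 were called lower. In a fit to the 6 libraries alone 8 were called lower and 1 higher. With upper-quartile scaling the ribosomal protein list had 0 genes higher and 38 lower, and the oxidative phosphorylation list 1 higher and 18 lower. In a fit to the 6 libraries alone the ribosomal protein list had 0 higher and 50 lower. The oxidative phosphorylation list had 1 higher and 29 lower in that fit. Without the libraries that stood apart the counts of both lists were the same as with the 6 libraries alone. Ribosomal protein genes have many processed copies, so that the split of their reads is uncertain. Lysosome genes went the other way, with 17 of 30 higher and 1 lower and a median of 0.37: the protease gene CTSB had 1683, 1619 and 1608 CPM against 872, 906 and 906 CPM, and the cholesterol exporter gene NPC1 rose by 0.71 ± 0.08. Macrophages are rich in lysosomes, and the part of their RNA in this rise was not tested.

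Genes of the plasminogen system moved in both directions. PLAU, the urokinase that activates plasminogen, had 559, 536 and 536 CPM in the smooth THP-1 libraries, against 123, 129.5 and 128 CPM in the smooth controls, a rise of 2.10 ± 0.11 (edgeR adjusted p = 4.4e-13), and its receptor gene PLAUR rose by 1.11 ± 0.10. SERPINB2, an inhibitor of urokinase, rose by 2.99 ± 0.17. ANXA2 and S100A10, which together bind plasminogen at the cell surface, fell with log2 changes of -0.95 ± 0.09 and -0.89 ± 0.11. Of 20 matrix metalloproteinase and TIMP genes 12 rose and 2 fell, with a median of 0.74. MMP14, a form anchored in the cell membrane, had 2928, 2713 and 2882 CPM against 2180.2, 2172 and 2196 CPM, and MMP2, which MMP14 activates, rose by 0.66 ± 0.08. TIMP1, an inhibitor of metalloproteinases, rose by 1.22 ± 0.17. ADAMTS1 fell (-1.03 ± 0.09) while ADAMTS5 rose (1.35 ± 0.14).

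TGF-beta target genes fell more often than they rose, 12 against 5 of 27, with a median of -0.42. TGFBI, a matrix protein, had 251, 242 and 247 CPM in the smooth THP-1 libraries against 1149, 1180.2 and 1206 CPM in the smooth controls, a change of -2.26 ± 0.08. TAGLN, an actin-binding protein of contractile cells, fell with a log2 change of -2.69 ± 0.17. The ligand gene TGFB2 fell (-2.21 ± 0.14) and TGFB1 rose (0.32 ± 0.09). Of 33 genes of fibrillar and stromal matrix 5 rose and 19 fell, with a median of -0.49. LOX, which crosslinks collagen, had 230.4, 223 and 208 CPM against 621, 604 and 604 CPM. COL6A2 and COL6A1 rose by 0.87 ± 0.09 and 0.71 ± 0.11, with FN1, LUM and LOXL1 the other 3 that rose. Targets of YAP and TAZ, factors that respond to cell shape and tension, fell in 14 of 22 cases and rose in 2, with a median of -0.52. CCN2 had 374, 339 and 358 CPM against 626, 611 and 623 CPM, and ANKRD1 averaged 11.3 ± 0.423 CPM against 70.3 ± 1.07 CPM. Actin cytoskeleton genes fell in 15 of 33 cases and rose in 3.

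The basement membrane genes changed in both directions, with 8 of 22 higher and 8 lower. Both chains of the collagen IV network of most tissues fell: COL4A1 had 986, 902 and 931 CPM in the smooth THP-1 libraries against 2817, 2801 and 2899 CPM in the smooth controls (-1.60 ± 0.12), and COL4A2 fell with a log2 change of -0.73 ± 0.09. Both genes overlap at their starts on opposite strands, and the libraries do not tell strands apart. LAMA3, a laminin chain of epithelia, had 147, 138 and 152 CPM against 32.9, 31.1 and 29.3 CPM and rose by 2.23 ± 0.11, while LAMB3, another laminin chain, rose by 0.54 ± 0.11. NID2 rose by 1.72 ± 0.10 and AGRN, a heparan sulfate proteoglycan of the glomerular basement membrane, by 0.69 ± 0.20. Integrin genes moved with both signs, 6 of 15 higher and 5 lower, with ITGB8 up (1.62 ± 0.12) and ITGA6, a laminin receptor chain, down (-1.73 ± 0.14).

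Immediate early genes, which cells switch on within minutes of a stimulus, fell in 11 of 28 cases (39.3%) and rose in 6 (21.4%). Over all genes tested 17.7% fell and 17.3% rose. FOS had 4.01, 2.05 and 5.23 CPM in the smooth THP-1 libraries against 17.7, 21.5 and 18.2 CPM in the smooth controls (-2.35 ± 0.27), and EGR1, another transcription factor of the list, fell with a log2 change of -1.45 ± 0.19. KLF4 and MYC, named above, are in this list too. Heat shock genes were split, with 8 of 18 higher and 6 lower.

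Podocyte genes showed no common direction, with 8 of 23 higher and 7 lower and a median of -0.08. PODXL (podocalyxin), the sialoprotein of the podocyte surface, had 5.17, 6.32 and 6.85 CPM in the smooth THP-1 libraries and 9.28, 8.74 and 11.2 CPM in the smooth controls, a change of -0.67 ± 0.21 (edgeR adjusted p = 0.016). Without smooth control replicate 3 or smooth THP-1 replicate 1 its edgeR adjusted p was 0.0806 and 0.0777. CD2AP, an adaptor of the slit diaphragm, fell with a log2 change of -0.51 ± 0.10, and KIRREL1 (Neph1), a slit diaphragm protein, rose by 0.64 ± 0.08. VEGFA, with which podocytes sustain glomerular endothelium, had 516, 546 and 581 CPM against 322, 329 and 334 CPM, a rise of 0.74 ± 0.12. SYNPO and ACTN4, both tied to actin in foot processes, were not called (-0.13 ± 0.11 and -0.08 ± 0.09).

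Growth factor genes of several families were called, and so were genes of their antagonists. Among 24 BMP ligands, antagonists and ID genes 12 rose and 6 fell. BMP2 had 90.7, 89.1 and 89.3 CPM in the smooth THP-1 libraries against 19.6, 19.04 and 19.9 CPM in the smooth controls, and the BMP antagonist gene CHRD (chordin) had 49.6, 49.02 and 55.8 CPM against 4.29, 5.75 and 6.30 CPM. Their rises were 2.20 ± 0.12 and 3.25 ± 0.23. PDGFB, a growth factor of mesangial cells, had 104, 91.96 and 92.5 CPM against 15.6, 15.9 and 13.04 CPM and rose by 2.69 ± 0.14, while PDGFC, FGF2 and the receptor gene EGFR fell with log2 changes of -1.21 ± 0.09, -1.43 ± 0.09 and -1.14 ± 0.08. Of 13 Wnt ligand and antagonist genes 7 rose and 1, DKK1, fell; DKK2 rose by 2.09 ± 0.22 and WNT7B by 1.08 ± 0.14. STC1 rose by 3.09 ± 0.18 while STC2 fell. NTN1 (netrin 1), a guidance cue, had 249, 216 and 228 CPM against 49.2, 48.1 and 53.1 CPM and rose by 2.21 ± 0.12, and NTN4, a netrin of basement membranes, fell (-1.37 ± 0.11).

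**Figure D5:**
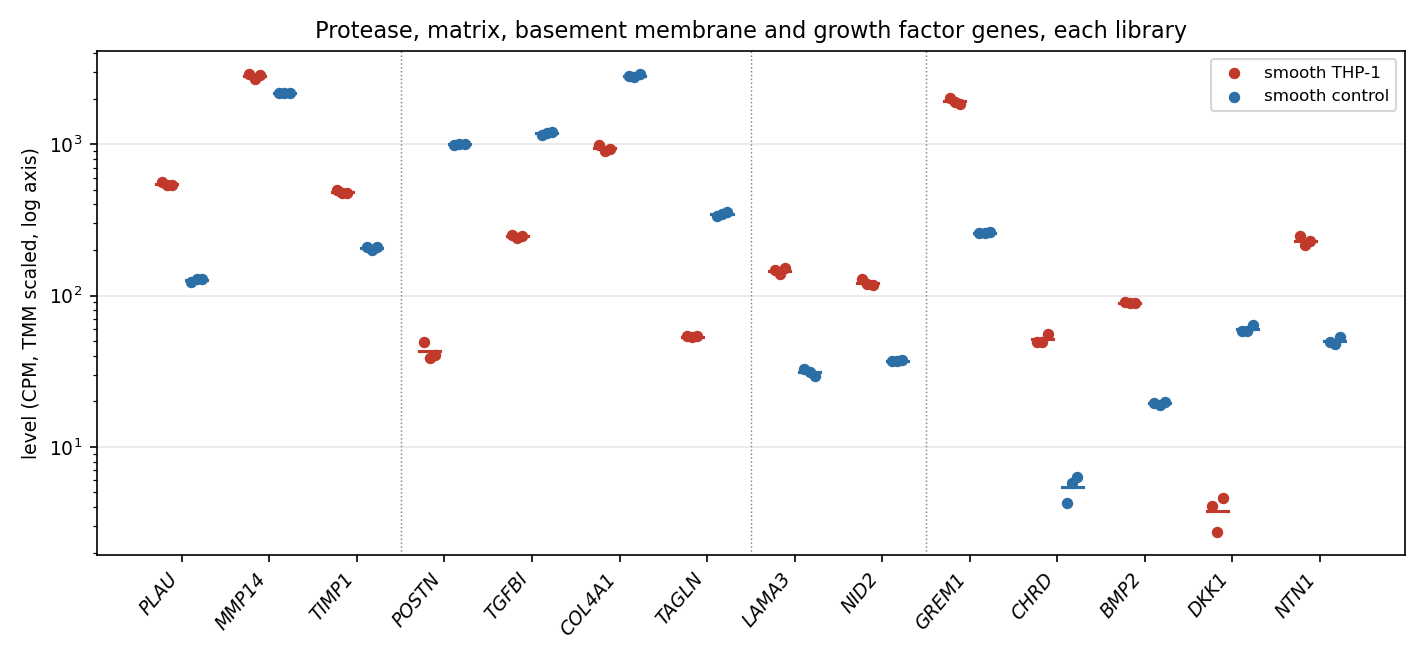
Level of protease, matrix, basement membrane and growth factor genes in each library (CPM, log axis), smooth THP-1 in red and smooth control in blue, with group means as bars. POSTN, TGFBI, COL4A1, TAGLN and DKK1 lie below their controls in all 3 libraries, and the other genes lie above theirs.

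Metabolic lists gave scattered changes. NDRG1 and CA12, both raised by low oxygen, rose by 2.50 ± 0.10 and 1.75 ± 0.12, within a list of 35 hypoxia and glycolysis genes in which 12 rose and 7 fell. Of 24 cholesterol synthesis genes 3 rose (12.5%) and 4 fell (16.7%), near the 17.3% and 17.7% of all genes tested. HMGCS1 had 20.9, 18.6 and 18.4 CPM against 16.6, 16.6 and 15.3 CPM, not called (0.25 ± 0.12). In a fit to the 6 libraries alone HMGCS1 was called higher (edgeR adjusted p = 0.0425). ANGPTL4, an inhibitor of lipoprotein lipase, and PLIN2, a coat protein of lipid droplets, rose by 1.56 ± 0.10 and 1.22 ± 0.10, and SCD, which desaturates fatty acids, fell with a log2 change of -0.94 ± 0.08. CYP1A1, an enzyme raised by the aryl hydrocarbon receptor, averaged 4.81 ± 0.314 CPM against 0.233 ± 0.211 CPM, and CYP1B1 rose by 1.41 ± 0.11.

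Set against the cytokine group on the same surface, 3620 genes (22.4% of those tested) differed, 1716 higher (10.6%) and 1904 lower (11.8%) in the smooth THP-1 libraries. Of 32 type I interferon response genes 16 were higher and 1 lower, and of 39 NF-kB and TNF target genes 5 were higher and 20 lower. CXCL6 averaged 117 ± 3.77 CPM in the smooth THP-1 and 1062 ± 204 CPM in the smooth cytokine libraries (-3.18 ± 0.14, edgeR adjusted p = 6.4e-14), CXCL1 259 ± 10.3 and 1661 ± 183 CPM (-2.68 ± 0.09), and C3 438 ± 24.6 and 1853 ± 487 CPM (-2.08 ± 0.13). ICAM1, at 92.8 ± 5.47 and 81.5 ± 6.45 CPM, was not called between these groups (0.19 ± 0.09, edgeR adjusted p = 0.12). TRAF1 was higher with macrophages, at 79.2 ± 1.22 and 12.3 ± 1.63 CPM (2.68 ± 0.13). PTGES, which makes prostaglandin E, was far lower with macrophages, at 1.11 ± 0.183 and 29.4 ± 4.43 CPM (-4.72 ± 0.25), and so was DCN (decorin), at 13.7 ± 2.68 and 225 ± 50.1 CPM (-4.04 ± 0.15). POSTN and TGFBI were lower than with cytokines as well, with log2 differences of -4.23 ± 0.13 and -2.15 ± 0.08. PLAU and PDGFB were higher, by 2.51 ± 0.11 and 3.30 ± 0.14, and BMP4 averaged 9.83 ± 0.882 against 0.129 ± 0.174 CPM. Of the 40 mitosis genes 6 were higher with macrophages than with cytokines and 0 lower. Leaving out smooth cytokines replicate 2 alone changed the count of genes called to 3092.

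Beside the cell cycle, the test of the difference between surfaces called 2134 genes (13.2%), 1271 higher (7.88%) and 863 lower (5.35%) on smooth, a split that became 1014 higher and 1077 lower with upper-quartile scaling. Of 13 chemokine genes 4 were called lower and 0 higher on smooth, and of 16 complement genes 5 lower and 2 higher. CXCL6 averaged 117 ± 3.77 CPM in the smooth THP-1 and 58.1 ± 4.003 CPM in the smooth control libraries, and 519 ± 65.99 CPM in the fractal THP-1 and 42.2 ± 2.62 CPM in the fractal control libraries, a difference of -2.61 ± 0.18 (edgeR adjusted p = 4.9e-09). The differences of C3, SOD2, CXCL1 and SAA1 were -2.72 ± 0.18, -1.43 ± 0.15, -1.51 ± 0.12 and -4.23 ± 0.78. That of SAA1 was -3.45 without smooth control replicate 3 and was not called by limma-voom (adjusted p = 0.065). Genes that responded more on smooth included ICAM1 (1.01 ± 0.13) and SERPINB2, which averaged 55.5 ± 3.04 and 6.96 ± 0.880 CPM in the smooth THP-1 and smooth control libraries, and 6.35 ± 0.620 and 5.06 ± 0.296 CPM in the fractal ones. Its difference was 2.66 ± 0.25. ANKRD1, which fell on both surfaces, fell less on smooth, with a difference of 2.60 ± 0.27. Of 33 actin cytoskeleton genes 13 were called higher on smooth and 0 lower, and of 22 YAP and TAZ target genes 7 higher and 1 lower. Differences were not called for GREM1 (0.46 ± 0.19; called under 3 alternatives, with edgeR adjusted p between 0.0036 and 0.0333), TGFBI (0.09 ± 0.10) and PLAU (-0.12 ± 0.15), while POSTN fell more on smooth (-0.77 ± 0.16). The macrophage markers without SRGN and LCP1 summed to 123.9 ± 5.45 CPM in the smooth THP-1 and 58.4 ± 9.31 CPM in the fractal THP-1 libraries, and the part of this in the differences between surfaces was not tested. Without fractal THP-1 replicate 3 the test called 3266 genes, and without both libraries that stood apart 3642.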

How the data were processed

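RNA was taken with the PicoPure kit, enriched for poly(A) RNA and sequenced as pairs of 150 bases without strand, per the labels' protocols. The deposited table holds raw counts of reads per gene made by the authors; tools listed in the submitters' processing notes are featureCounts 1.5.0-p3, HISAT2 2.0.5 and CASAVA, on GRCh38, with roles and annotation not given in the sources used here. Genes were matched to GENCODE 29. Genes with low counts were left out by edgeR's filter (minimum count 10, total 15), which kept 16129. Means of 6 groups were fitted to the 18 libraries with edgeR 4.0.16 in R 4.3.3 (TMM factors, quasi-likelihood test with 12 degrees of freedom left, and a biological coefficient of variation of 12.2%), with Benjamini-Hochberg adjustment over all genes tested. The comparison, the lists and the genes were chosen with earlier results of these data known. Named genes were those with the largest changes or differences in CPM that passed the test and reached 5 CPM in the higher group, up to 3 per list and direction, and a set panel. Genes named by size of change also had to show no overlap between the groups compared, except for the difference between surfaces. The 38 other genes with values were chosen after their values were seen. Of the 185 genes with values 83 overlap a gene on the other strand. Results of some genes are not reported here. The statistics were tested on simulated data in which far fewer genes changed than were called here and no library stood apart. That test does not cover these features of the data. Other normalizations, filters, tools, a replicate block and omitted libraries were tried.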

Additional observations from a re-analysis of the deposited data

Results flagged for a closer look

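Effects of macrophages that differed between smooth and fractal topography, by the test of the difference itself (edgeR, adjusted p under 0.05), were found in 2134 genes. Values are the log2 effect on smooth minus that on fractal topography. Effects were higher on smooth in the cell cycle genes CENPM (3.05), RRM2 (2.75), CLSPN (2.59), GINS2 (2.47) and MKI67 (2.18), and in NRGN (2.97), CPA4 (2.77), SERPINB2 (2.66), ANKRD1 (2.60), PODXL (1.30), ICAM1 (1.01), ACTN4 (0.62) and CCN2 (0.48). They were lower on smooth in the inflammatory genes IL6 (-0.81), SOD2 (-1.43), CXCL1 (-1.51), CXCL12 (-2.39), CXCL6 (-2.61), C3 (-2.72), SAA1 (-4.23) and SAA2 (-5.31). They were also lower in FN1 (-0.69), CDKN1A (-0.80), VEGFA (-1.10), CLSTN2 (-3.58), TMPRSS2 (-3.60), EHF (-3.70), CHRD (-3.81), BDKRB2 (-4.22) and KCND2 (-6.07). CPA4 is one of the genes that fell on both surfaces and fell less on smooth, with 7.69 ± 1.21 CPM in the smooth THP-1 and 67.2 ± 3.99 CPM in the smooth control libraries, and 2.05 ± 0.891 CPM in the fractal THP-1 and 118 ± 3.34 CPM in the fractal control libraries. CHRD rose on both and rose less on smooth, with 51.5 ± 3.76 CPM in the smooth THP-1 and 5.45 ± 1.04 CPM in the smooth control libraries, and 165 ± 50.97 CPM in the fractal THP-1 and 1.23 ± 0.448 CPM in the fractal control libraries. The call of KCND2 was lost without smooth control replicate 2 (edgeR adjusted p = 0.198), and that of CXCL12 without smooth control replicate 3 or fractal control replicate 2 (edgeR adjusted p = 0.0575 and 0.0662). By limma-voom the calls of CXCL12 and SAA1 were lost (adjusted p = 0.0845 and 0.065). Without smooth control replicate 3 the difference of SAA1 was -3.45 and that of SAA2 -4.68. Without fractal control replicate 2 that of SAA2 was -7.04 and that of CXCL12 -1.73, and without fractal control replicate 3 that of CXCL12 was -3.02. That of KCND2 was -4.90 without smooth control replicate 2.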

How the results depend on the processing

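The 5655 genes called between the smooth groups became 5653 with RLE factors, 5660 with upper-quartile factors, 5670 by DESeq2 and 5753 by limma-voom. They became 1459 with a fold of at least 2 asked for (log2 of 1), 7385 without the 2 libraries that stood apart and 7654 with the 6 libraries alone. Leaving out 1 library at a time gave 4602 to 4900 genes, 1632 to 3266 for the difference between surfaces (2134 with all) and 2757 to 3125 against cytokines (3620 with all). The highest of the middle range, 3266, is that without fractal THP-1 replicate 3; without both libraries that stood apart it was 3642. Same-numbered libraries of the smooth groups did not deviate together (correlations -0.0133, 0.0131 and -0.0311), and a replicate block gave 5566 genes, with 2086 for the difference between surfaces and 3518 against cytokines. The summed macrophage markers of the smooth THP-1 libraries, 123.9 CPM without SRGN and LCP1, were 130.1 CPM with unscaled totals, 467.3 CPM with SRGN and LCP1 included (against 433.6 CPM in the smooth controls), and 120.9 to 126.1 CPM without 1 library. The threshold of a 2-fold change was applied to the count of genes only. Of the 169 genes with values called between the smooth groups, 165 were called the same way under every other alternative and 0 were reversed. The others, FN1, PODXL, PTGES and UHRF1, lost their call under some. CXCL1, DCN, GINS2, HMGCS1, IRF9 and TERT, not called in the main fit, were called with the 6 libraries alone.

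With 3 libraries a group and 13990684 to 17395338 counts, genes of a few counts, such as WT1, could not be tested. The libraries do not tell strands apart. The labels do not state a step that removed macrophages, so their RNA and that of podocytes cannot be told apart gene by gene.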

Other observations

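Several lists not described above moved in both directions between the smooth THP-1 and smooth control libraries. Over all genes tested 17.3% were called higher and 17.7% lower. Of 15 target genes of the glucocorticoid receptor 5 rose and 6 fell, among them SGK1 (-2.08 ± 0.15) and TSC22D3 (-1.03 ± 0.17), both of which glucocorticoids raise. Of 24 cadherin and junction genes 6 rose and 7 fell: GJB2, a connexin of epithelia, rose (2.46 ± 0.22), while GJA1, the connexin of many other cells, and CDH2 (N-cadherin) fell (-1.32 ± 0.08 and -0.85 ± 0.09). Of 14 genes of IGF binding and of the proteases and inhibitors that act on it 2 rose, IGFBP5 and STC1, and 7 fell, among them PAPPA, a protease that frees IGF (-1.57 ± 0.09). Of 30 semaphorin, netrin and ephrin genes 14 rose and 9 fell, with SEMA5A (2.88 ± 0.25) and SEMA3E (-1.70 ± 0.42) as examples of each. Of 29 NRF2 and oxidative stress genes 9 rose, HMOX1 (heme oxygenase 1) among them (1.04 ± 0.12), and 7 fell. The examples were chosen after their values were seen.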
